A study of Mus musculus with 12 samples.

Results

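The members described here were the array probes made to predicted RefSeq non-coding transcripts, that is, transcript models that RefSeq derived by computation and filed under an XR_ accession. They were taken by their probe names from the non-control probes, and probes of 3 genes (Gm40775, Gm30989 and Gm39266) were left out by the rule. This gave 12143 members of 97836 non-control probes, or 12.4%. A gene symbol could be given to 3813 of them (31.4%), standing for 3478 genes, of which 3808 probes belonged to genes annotated as long non-coding RNA, 3 to protein-coding genes and 2 to other RNA genes. The other 8330 members carried no symbol here and are only counted.

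The arrays measured RNA from the spleens of female BALB/c mice that were 6 weeks old when the experiment began. One set of mice received ovalbumin (OVA, an egg-white protein used to sensitise mice) at 2 mg/kg into the peritoneum, given 3 times (on day 1, day 3 and day 5), while the other received its vehicle, normal saline. Spleens were taken on day 14 or day 28. The 12 arrays comprised 4 OVA day 14, 4 OVA day 28, 2 control day 14 and 2 control day 28 spleens. No allele or transgene is named, and the labels record no pooling of animals. They also do not say whether the mice of a group were housed or handled in parallel, so p-values measure the spread between these arrays alone.

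Long non-coding RNAs are transcripts without a long open reading frame. Many are transcribed from the neighbourhood of protein-coding genes, from the opposite strand of their bodies or outward from their promoters, and a minority regulate chromatin, transcription or RNA stability. They are as a class less abundant and more restricted to single cell types than messenger RNAs. In lymphoid tissue well-studied examples act in T cell differentiation and in the survival of myeloid cells. For the transcripts named here no function is asserted, and the protein-coding gene nearest to each is given as a place name.

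The promoters of 6 genes are shown because these genes carried the largest differences at day 28 or the brightest signals. Each window runs 5′ to 3′ on the gene's own strand and covers 250 bases before and 50 bases after the RefSeq start (GRCm38.p6). Gm31534 (chr2:74205395-74205694, plus strand) and Gm40594 (chr10:5469584-5469883, plus strand) had the highest differences at day 28 among the genes named for that comparison that have a window in the table. Gm40216 (chr4:104890034-104890333, minus strand) and Gm35875 (chr6:47040755-47041054, minus strand) were among the lowest. Gm26535 (chr10:37319255-37319554, plus strand) and Gm39852 (chr2:74606183-74606482, minus strand) were the brightest of all. Capitals mark matches, on either strand, to the TATA box TATAAA, the CCAAT box CCAAT, the GC box GGGCGG or the ETS core CCGGAAGT.
Gm31534: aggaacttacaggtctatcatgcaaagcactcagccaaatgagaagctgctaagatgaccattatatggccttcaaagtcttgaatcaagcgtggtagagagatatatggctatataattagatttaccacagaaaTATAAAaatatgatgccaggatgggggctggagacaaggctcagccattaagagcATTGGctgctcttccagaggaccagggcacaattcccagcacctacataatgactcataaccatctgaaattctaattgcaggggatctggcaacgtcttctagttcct
Gm40594: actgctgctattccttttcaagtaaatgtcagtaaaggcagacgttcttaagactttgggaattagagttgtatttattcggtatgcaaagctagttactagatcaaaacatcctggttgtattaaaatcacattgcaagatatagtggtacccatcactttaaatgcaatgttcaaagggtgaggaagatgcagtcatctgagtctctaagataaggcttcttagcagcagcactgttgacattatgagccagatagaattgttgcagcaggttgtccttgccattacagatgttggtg
Gm40216: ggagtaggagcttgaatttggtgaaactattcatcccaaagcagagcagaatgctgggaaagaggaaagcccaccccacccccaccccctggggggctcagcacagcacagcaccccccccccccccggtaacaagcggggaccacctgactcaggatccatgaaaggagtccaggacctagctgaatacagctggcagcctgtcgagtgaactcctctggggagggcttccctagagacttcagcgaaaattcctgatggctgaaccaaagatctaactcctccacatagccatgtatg
Gm35875: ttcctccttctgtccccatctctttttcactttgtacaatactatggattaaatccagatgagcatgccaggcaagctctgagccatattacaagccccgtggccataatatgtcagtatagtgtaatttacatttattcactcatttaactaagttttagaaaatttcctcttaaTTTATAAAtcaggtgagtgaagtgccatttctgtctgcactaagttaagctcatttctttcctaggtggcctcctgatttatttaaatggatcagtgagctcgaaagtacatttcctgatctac
Gm26535: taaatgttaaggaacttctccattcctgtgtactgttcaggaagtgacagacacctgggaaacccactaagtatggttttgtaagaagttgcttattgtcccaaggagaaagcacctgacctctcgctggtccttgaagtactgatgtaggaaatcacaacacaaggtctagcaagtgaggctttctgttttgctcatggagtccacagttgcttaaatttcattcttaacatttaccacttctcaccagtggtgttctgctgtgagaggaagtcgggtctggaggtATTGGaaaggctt
Gm39852: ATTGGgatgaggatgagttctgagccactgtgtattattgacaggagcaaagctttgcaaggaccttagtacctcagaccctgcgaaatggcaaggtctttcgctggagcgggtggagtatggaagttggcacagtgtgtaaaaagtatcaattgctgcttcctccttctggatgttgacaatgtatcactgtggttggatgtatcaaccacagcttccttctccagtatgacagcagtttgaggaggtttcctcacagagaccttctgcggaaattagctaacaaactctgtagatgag

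The Gm31534 window held 1 TATA box and 1 CCAAT box in reverse complement. In the Gm35875 window 2 TATA box matches, 1 on each strand, overlapped and appear as 1 run of capitals. Gm26535 and Gm39852 each held 1 reversed CCAAT box, and the windows of Gm40594 and Gm40216 held none of these letters. GC content ran between 37.3% in Gm35875 and 56.3% in Gm40216. Such matches are common: among 27025 promoters of the table, 14.2% held a TATA box, 37.9% a CCAAT box, 35.9% a GC box and 4% an ETS core.

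Promoters of members were poor in CpG, whether or not the transcript was detected. A ratio of observed to expected CpG above 0.6 was found in 11.47% of 776 promoters of genes detected on all 12 arrays, in 9.60% of 948 detected on 1 to 11 arrays and in 7.69% of 819 detected on none. All 17492 protein-coding promoters of the table had it in 48.3%, and all 9533 long non-coding promoters in 14.7%. The GC box followed the same order, in 14.3%, 11.8% and 11.7% of the member promoters against 46.3% of protein-coding ones. Place in the genome differed with detection as well. Of 1079 genes detected on all 12 arrays, 31.97% overlapped a protein-coding gene and 14.4% lay over 100 kb from any. Of 1101 genes detected on none, 19.9% overlapped one and 27.7% lay farther than 100 kb. These are descriptions of the annotation with no test.

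Several arrays stood apart from the rest before any comparison. On OVA day 14 replicate 2, 57.5% of spots were well above background, against 72.4% to 80.0% on the other arrays. Across control day 14 replicate 1, a streak of 3396 spots ran above the same spots on the other arrays (median excess 2.55 log2 units). The 4 control arrays lay on slide 1, the OVA day 14 arrays on slide 2 and the OVA day 28 arrays on slide 3, so slide and group cannot be told apart in any comparison of OVA with control or of the OVA groups with each other. The signal at the 75th percentile was 483.8 to 549.3 units on OVA day 28 arrays and 266.7 to 368.1 units on the others. The tissue could be checked through a few curated non-coding transcripts: all 5 chosen as immune transcripts (AW112010, Morrbid, Ifngas1, Zeb2os and Mirt2) had a probe well above background on at least 11 arrays. Among transcripts of other tissues, Sox2ot was detected on none, while Meg3 was detected on 12 and Hotair on 10.

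Members were less often detected than all non-control probes together in every group. A probe counts as detected when all its unflagged spots were well above the local background. In OVA day 14 spleens 53.6%, 33.8%, 58.3% and 56.9% of members were detected (50.7% ± 11.4, SD, n = 4). In OVA day 28 spleens the shares were 60.5%, 61.5%, 57.6% and 56.4% (59.0% ± 2.40, SD, n = 4). In control spleens they were 63.8% and 52.4% at day 14 (58.1% ± 8.07, SD, n = 2), and 58.5% and 59.3% at day 28 (58.9% ± 0.53, SD, n = 2). The OVA and control arrays overlapped on both days, and without OVA day 14 replicate 2 that group's mean was 56.3%. Over all non-control probes the group means were 68.2%, 74.8%, 73.9% and 74.7% in the same order. Curated RefSeq non-coding transcripts, filed under NR_ accessions, lay between these, with 59.6%, 68.5%, 67.1% and 67.2%. Low detection was not particular to members. Ensembl probes gave 51.3%, 59.3%, 59.0% and 58.9%, and ultraconserved probes less than members, with 48.3%, 54.9%, 56.0% and 56.2%.

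**Figure D1:**
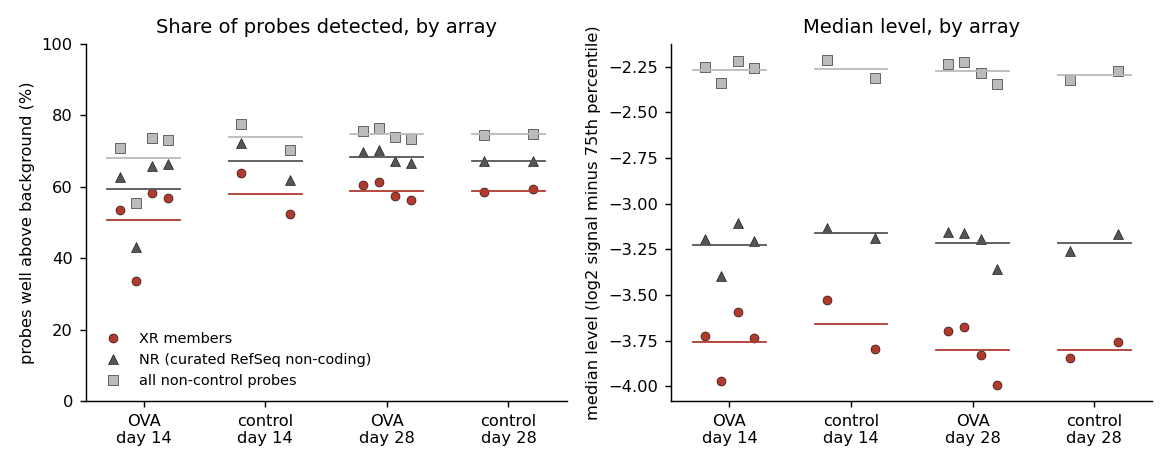
Left, the share of probes well above background (percent); right, the median level (log2 signal minus the array's 75th percentile). Points are arrays and lines are group means, for the 12143 predicted transcripts (circles), 873 curated RefSeq non-coding transcripts (triangles) and all 97836 non-control probes (squares). The predicted transcripts are lowest on every array, and OVA day 14 replicate 2 is low in all 3 sets on the left.

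Across the 12 arrays, 4093 members (33.7%) were detected on all, 4315 (35.5%) on some and 3735 (30.8%) on none. All non-control probes gave 55.0% on all and 18.2% on none, and curated transcripts 43.0% and 21.2%. Without OVA day 14 replicate 2, 5754 members (47.4%) were detected on all of the remaining arrays, an alternative added after seeing the data, and the same 3735 members remained on none. A few members were detected on every array of 1 group and on no array of the others. These were 20 in OVA day 28 spleens, 0 in OVA day 14 spleens, 2 in control day 14 spleens and 6 in control day 28 spleens. The 20 of OVA day 28 were 0.165% of members, beside 0.149% of all non-control probes. The shares were 0.0165% beside 0.0276% in control day 14 and 0.0494% beside 0.0491% in control day 28 spleens. In OVA day 14 spleens the count was 0 over all non-control probes too. It required detection on replicate 2, where 33.8% of members were detected.

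Members were dim. Their mean level over the 12 arrays, as log2 signal minus the array's 75th percentile, had a median of -3.79, with quartiles at -5.57 and -2.04 and a 95th percentile at 0.82. Curated transcripts had a median of -3.22, NONCODE transcripts -2.81, RIKEN clones -2.38 and the array's catalogue probes lay above all of these. The brightness of a probe depends on its sequence as well as on its transcript, so these medians describe probe sets. The median level of members was -3.76 ± 0.16 in OVA day 14 and -3.80 ± 0.15 in OVA day 28 spleens (SD, n = 4 each), and -3.66 ± 0.19 in control day 14 and -3.80 ± 0.06 in control day 28 spleens (SD, n = 2 each). The range of the OVA arrays overlapped that of the controls on each day. Duplicate spots of a tested member differed by a median of 0.14 on the log2 scale, against 0.28 for members that were not tested and 0.11 for all tested probes.

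**Figure D2:**
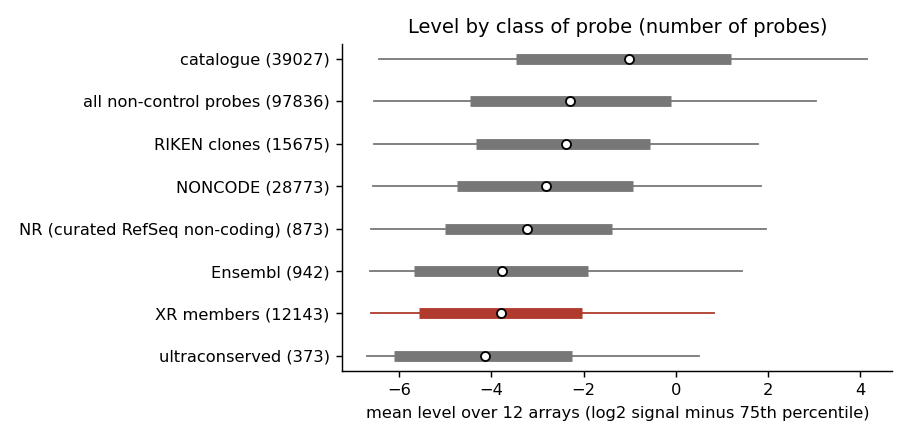
Mean level over the 12 arrays (log2 signal minus the 75th percentile) for each class of probe, with the number of probes in brackets. Circles are medians, thick bars span the quartiles and thin lines the 5th to 95th percentiles; the predicted transcripts (median -3.79) sit beside the Ensembl and ultraconserved probes at the dim end.

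Of the 8 brightest named probes, 1 passed the threshold for OVA over control at day 28. Probe 1 of Gm26535 (chromosome 10, over 100 kb from any protein-coding gene) read 8.58, 7.51, 7.50 and 7.54 in OVA day 28 spleens, against 7.96 and 8.04 in control day 28 spleens. Its probe 2 read 8.96, 7.58, 7.50 and 7.44 in OVA, against 7.87 and 7.93 in control. Replicate 1 of OVA day 28 lay above both controls on each probe and the other 3 arrays lay below them, so the groups overlapped. The log2 difference was -0.22 ± 0.25 (SE) for probe 1 and -0.03 ± 0.34 for probe 2 (adjusted p = 0.613 and 0.97, limma). Without OVA day 28 replicate 1, probe 1 passed the threshold with a log2 difference of -0.48. That array was the highest of its group for all 8 brightest probes, which also covered Gm39852, Gm32913, Gm39162, 1700055L01Rik, Gm35147 and Gm31648.

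Gm39852 (chromosome 2, beside Lnpk, which shapes the endoplasmic reticulum) was the 1 brightest member that fell at day 28. It read 6.97, 6.75, 6.74 and 6.65 in OVA, against 7.17 and 7.22 in control spleens, with no overlap. The log2 difference was -0.41 ± 0.11 (SE, adjusted p = 0.0313, limma). The call was lost without either day 28 control (-0.44 without replicate 1 and -0.39 without replicate 2) and without OVA day 28 replicate 2, 3 or 4 (-0.41, -0.40 and -0.37). Of its 25 alternatives 10 ended the call, these 5 among them, and the values ran between -0.48 and -0.26. For the other 7 probes of this group the smallest adjusted p at day 28 was 0.418.

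The main question was how spleens of OVA mice differed from those of saline mice at the same day, and at day 28 predicted transcripts both rose and fell. A member was tested when it was detected on every array of at least 1 group, which held for 7117 of 12143 (58.6%). A test covered all 72645 probes that met this rule, and a probe passed at an adjusted p below 0.05. At day 28, 662 members passed (9.30%), 392 higher in OVA and 270 lower. Of all tested probes 14% passed, 7.42% higher and 6.6% lower, so in this fit the members' share lay below that of the array as a whole. Changes of at least 2-fold were found in 48 members upward and 12 downward, or 0.674% and 0.169% of those tested, against 1.06% and 0.125% of all probes. Groups did not overlap in 33.3% of members and in 42.2% of all probes. Of those called, 29 of the 392 higher entered the test through OVA day 28 alone and 21 of the 270 lower through control day 28 alone. The median size of a called change was 0.62 upward and 0.55 downward on the log2 scale. The RNA came from spleen tissue and not from sorted cells, so fewer cells of a type and less RNA per cell cannot be told apart.

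These counts moved with the processing and with single arrays. With normexp background correction 392 members were higher and 2475 lower. These were 2867 of 7117 members, against 27731 of all 72645 tested probes, so there the members' share was not below that of the array. Array position as a block left 277 members, against 4144 of all tested probes. Leaving out 1 control of day 28 gave 167 members (replicate 1) or 161 (replicate 2). Leaving out an OVA day 28 array gave 395, 413, 412 and 708 members for replicates 1, 2, 3 and 4. Over all tested probes these fits gave 5759, 5774, 6072 and 9289, so not every omission lowered the members' count.

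Among brighter probes the members' share came near that of the array. All tested probes were divided by mean level into 3 classes of equal size. In the dim class, which held 3731 of the tested members, 6.27% of members passed at day 28, against 8.07% of all probes. In the middle class 10.3% of 2331 members passed, against 15.0% of all probes. In the bright class 17.8% of 1055 members passed, against 19.01% of all. The bright members leaned upward, with 109 higher and 79 lower, while all bright probes leaned downward, with 2023 higher and 2581 lower. The difference between members and other probes was not tested.

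**Figure D3:**
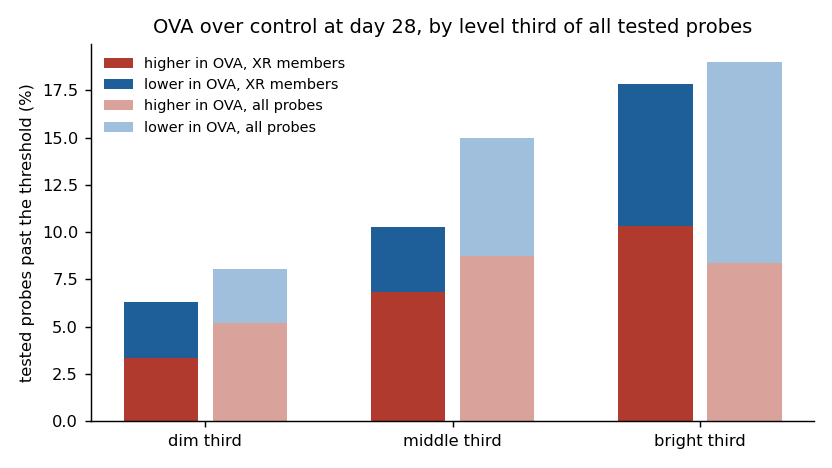
Share of tested probes past the threshold for OVA over control at day 28 (percent, y axis) in 3 equal classes of mean level (x axis), split into higher (red) and lower (blue) in OVA. Dark bars are the predicted transcripts and pale bars all tested probes; the dark bars reach 6.27%, 10.3% and 17.8%, the pale ones 8.07%, 15.0% and 19.01%.

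By place, members that overlapped a protein-coding gene on its own strand gave 4 higher and 6 lower of 39 tested at day 28, or 25.6%, beside 14% of all tested probes. The shares of the other places ran between 5.61% and 9.23%, and no difference between places was tested. Members that overlapped a coding gene on the opposite strand gave 12 higher and 9 lower of 349. Those starting back to back with a coding gene within 5 kb gave 4 higher and 2 lower of 65. Those farther than 100 kb from a coding gene gave 21 higher and 5 lower of 346, and the other members within 100 kb 23 higher and 11 lower of 606. For 684 members the table gave no strand for the comparison, and 41 were higher and 20 lower. A probe on the same strand inside a coding gene may read that gene's messenger RNA, which was not tested.

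Of 2089 named members tested, 105 rose and 53 fell at day 28, or 7.56%, beside 14% of all tested probes. Gm34128 (chromosome 11, 45.5 kb from Septin9, a cytoskeletal GTPase gene) was the 1 of the 10 highest that was detected on all 12 arrays. It read 2.39, 2.42, 2.24 and 2.02 in OVA, against 0.66 and 0.74 in control spleens. All OVA arrays lay over 1 log2 unit above both controls. The difference was 1.57 ± 0.18 (SE, adjusted p = 0.000976, limma), and the call held in each of its 25 alternatives, with values of 1.51 to 1.65.

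Gm31534, Gm35430 and Gm36007 rose from dimmer levels. Gm31534 probe 1 (chromosome 2, no coding gene within 100 kb; promoter shown above) read -1.46, -1.41, -1.36 and -1.50 in OVA, against -3.73 and -3.06 in control day 28 spleens (log2 difference 1.96 ± 0.34, SE, adjusted p = 0.00581, limma). Gm35430 (chromosome 10, no coding gene within 100 kb) read -1.93, -1.86, -1.84 and -1.66 in OVA, against -3.02 and -3.30 in control (1.33 ± 0.19, adjusted p = 0.00251). Gm36007 (chromosome 12, 82.0 kb from Lratd1) read -1.66, -1.46, -1.46 and -1.87 in OVA, against -2.76 and -2.96 in control (1.25 ± 0.20, adjusted p = 0.00367). The groups did not overlap, which the naming rule required, and every array of both groups detected the probe of each. The calls of Gm35430 and Gm36007 held in all 24 alternatives of each, though with normexp background correction the differences were 0.57 and 0.58. Gm31534 lost its call without control day 28 replicate 1, at 1.62. Its normexp value was 0.87.

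Gm40594 (chromosome 10) lies opposite Syne1, the gene of a nuclear-envelope protein that links the nucleus to the cytoskeleton. It read -2.43, -2.21, -2.61 and -2.84 in OVA, against -4.72 and -4.01 in control spleens, of which 1 array detected it. The log2 difference was 1.84 ± 0.40 (SE, adjusted p = 0.0151, limma). The OVA arrays all lay above the controls, as the naming rule required. The call was lost without control day 28 replicate 1 (1.48) or replicate 2 (2.19), and normexp gave 0.45.

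Of the 10 highest, 6 had entered the test through OVA day 28 alone, the group in which they were high, so their calls are not independent of the filter: Gm40594, Gm11802 probe 3 and another 4. These 4 were detected on all 4 OVA day 28 arrays and on neither control, so only a lower bound can be given. The bound sets the OVA mean against the control mean of, on each array, the higher of the dimmest detected signal and the probe's own signal. It is a point value for these arrays and carries no sampling error. Gm26901 (chromosome 1) was at least 2.32-fold higher in OVA (adjusted p = 0.00898, limma). Gm32741 (chromosome 2, overlapping the calcium channel gene Cacnb2) was at least 2.25-fold higher (adjusted p = 0.00569, limma), and Tvp23bos (chromosome 11, 23.6 kb from Tvp23b) at least 1.98-fold (adjusted p = 0.00016, limma). Gm41285 (chromosome 15, overlapping Dap) was at least 1.76-fold higher (adjusted p = 0.00383, limma). Measured means in OVA and control spleens were -3.38 and -5.12 for Gm26901, -3.52 and -5.61 for Gm32741, -3.70 and -5.24 for Tvp23bos, and -3.88 and -5.74 for Gm41285. None of these 4 passed with normexp, where the differences were 0.11, 0.08, 0.02 and 0.03. Gm26901 also lost its call without control day 28 replicate 1, where its fitted log2 difference of 1.05 lay below its bound.

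The 10 lowest named members lay, like the 10 highest, mostly in the dim class. Gm35715 (chromosome 9, opposite Ccdc12) read -2.85, -3.08, -2.89 and -2.90 in OVA, against -2.12 and -2.20 in control spleens (log2 difference -0.77 ± 0.13, SE, adjusted p = 0.00494, limma). Gm42351 (chromosome 4, overlapping Pex14, which imports proteins into peroxisomes) read -0.55, -0.49, -0.54 and -0.27 in OVA, against 0.23 and 0.32 in control (-0.74 ± 0.15, adjusted p = 0.0101, limma). These were the 2 of the 10 lowest that all 12 arrays detected, and neither overlapped, as the naming rule required. Gm35715 kept its call in all 25 alternatives, with values of -0.85 to -0.64. Gm42351 lost it without control day 28 replicate 1 (-0.79) or replicate 2 (-0.69).

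Of the 10 lowest, 5 had entered the test through control day 28 alone, the group in which they were high, so their calls are not independent of the filter: Gm26832, Gm40216, Gm35875, Gm36025 and Gm42335. Gm26832 (chromosome 8, overlapping Hydin, a gene of motile cilia) was not detected on any OVA day 28 array. It read -5.43, -5.55, -5.31 and -5.52 there, against -3.74 and -4.02 in control spleens, both of which detected it. It was at least 1.74-fold lower in OVA (adjusted p = 0.000898, limma). Gm40216 (chromosome 4, opposite Fyb2; promoter shown above) read -5.24, -5.06, -6.51 and -6.39 in OVA, against -4.07 and -4.17 in control, and was at least 1.47-fold lower (adjusted p = 0.0145). Gm35875 (chromosome 6, opposite Cntnap2, a neuronal adhesion gene) was at least 1.29-fold lower (adjusted p = 0.0407). Gm40216 lost its call without either day 28 control (-1.63 and -1.73 without replicates 1 and 2). Gm35875 lost it without either day 28 control, when OVA day 14 replicate 1 was left out, and when OVA day 28 replicate 1, 3 or 4 was; in these fits its difference lay between -1.02 and -0.78.

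The other 5 of the lowest were Gm36671, Gm33621, Gm30762, Gm36025 and Gm42335, with differences of -1.08, -0.96, -0.94, -0.78 and -0.77. Their neighbours include Terf2ip, a telomere-protecting gene (41.0 kb from Gm36671), Stt3b of protein glycosylation (37.2 kb from Gm30762) and the lysosomal protease gene Ctsb (18.3 kb from Gm36025). Gm33621 had no coding gene within 100 kb and Gm42335 lay opposite Arhgef10l. Adjusted p-values were 0.021, 0.0231, 0.0147, 0.0218 and 0.0486 (limma). OVA arrays detected Gm30762 on 3 of 4 and each of the other probes on 1 of 4, while both controls detected all 5. All 5 calls were lost without control day 28 replicate 1 (-0.98, -0.93, -0.93, -0.72 and -0.73) and without replicate 2 (-1.19, -0.99, -0.95, -0.85 and -0.82). Gm33621 also lost its call without OVA day 28 replicate 3 (-0.90), Gm36025 without OVA day 28 replicate 1 or 3 (-0.74 and -0.73), and Gm42335 in 10 of the 12 fits that left out 1 array (all but those without OVA day 14 replicate 2 and OVA day 28 replicate 2), at -0.85 to -0.64.

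**Figure D4:**
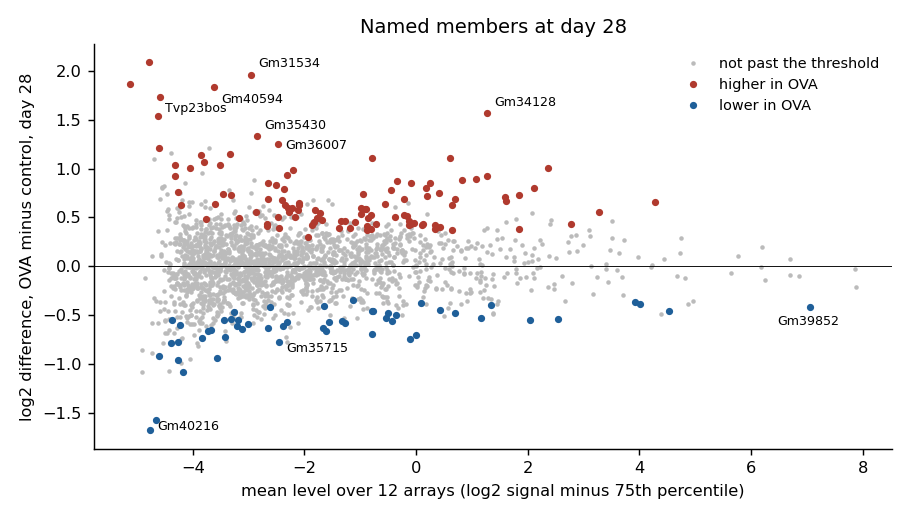
Log2 difference at day 28, OVA minus control (y axis), against mean level over the 12 arrays (x axis) for the 2089 named members tested; red and blue points passed the threshold. The largest differences lie at the dim end, where 9 of the 10 highest and 9 of the 10 lowest named members sit, and Gm34128 is the exception among the highest.

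**Figure D5:**
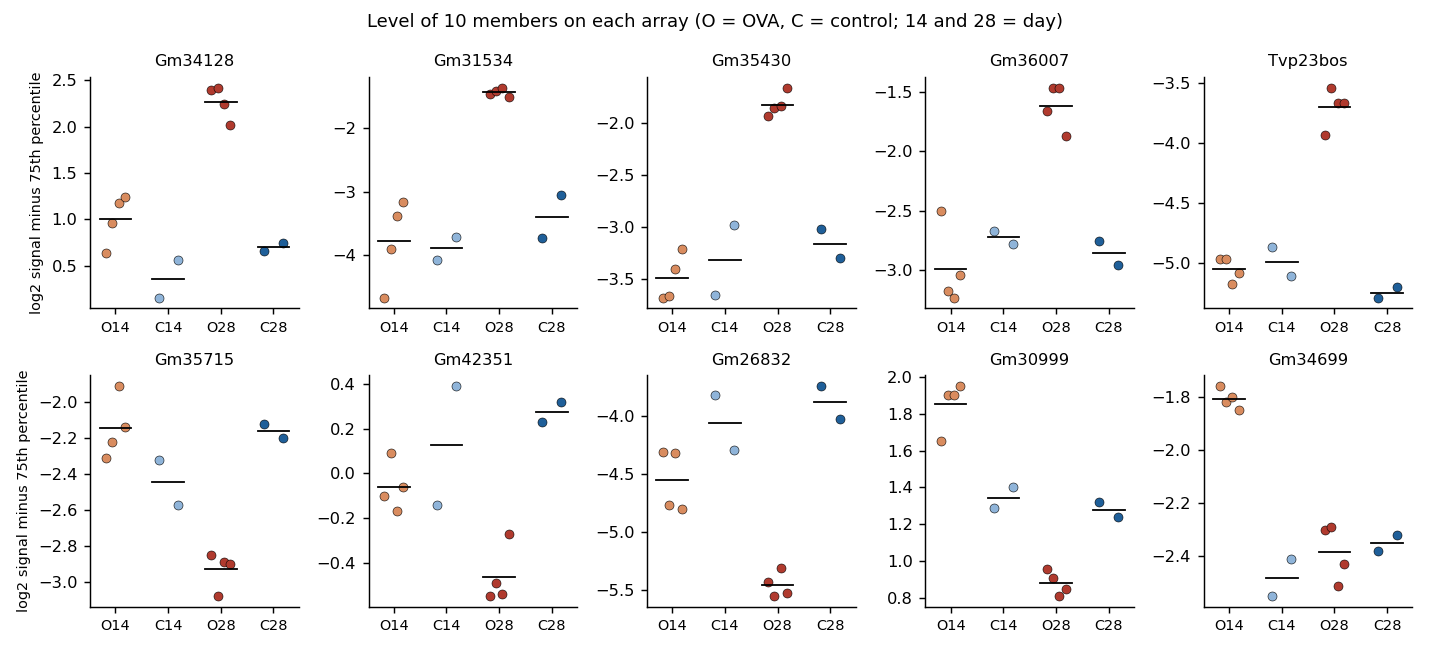
Level (log2 signal minus the 75th percentile) of 10 named members on each array; points are arrays and bars group means, with a scale of its own in each panel. In the upper row all OVA day 28 points lie above the other groups; Gm34699 stands out in OVA day 14 spleens.

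Probes of the same gene could differ in their call. A symbol was shared by several tested members in 107 genes, with 223 probes. Within a gene the day 28 log2 differences of these probes spanned a median of 0.27, and in 57 genes all had the same sign. At day 28, 13 of these genes had a probe past the threshold, and in 0 of them did every probe pass. Gm31534 is an example: its dimmer probe gave the 1.96 above, while its brighter probe, detected on all 12 arrays, gave 0.23 ± 0.10 (SE, adjusted p = 0.164, limma). Gm36903 read 1.11 ± 0.19 on its brighter probe (adjusted p = 0.00582) and 0.22 ± 0.21 on the dimmer one (adjusted p = 0.527). It was named after its values were seen. Gm36025 gave -0.78 and -0.55, the second with an adjusted p of 0.0577, and Gm30325, also chosen after its values were seen, gave 0.43 and 0.34 with adjusted p of 0.0342 and 0.081. Different probes can read different isoforms of a locus, which was not tested.

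Gm11802 had the most probes, 4, and the gene overlaps Tox, which encodes a transcription factor of developing T cells and innate lymphocytes. Probe 3 read -3.94, -3.85, -3.36 and -3.86 in OVA day 28 spleens, against -4.30 and -5.62 in control day 28 spleens, of which 1 detected it. The fitted difference was 1.21 ± 0.34 (SE, adjusted p = 0.0391, limma), partly against a signal not above background, and the probe had entered the test through OVA day 28 alone. Probes 1, 2 and 4, each detected on 11 arrays, gave 0.06, 0.11 and -0.23 (adjusted p = 0.845, 0.794 and 0.387). The call of probe 3 was lost without control day 28 replicate 2, where the difference was 0.55, without OVA day 14 replicate 4 and without any 1 of the OVA day 28 arrays. Gm14198 (opposite Zfp341), Gm30392 and Gm32184 (opposite Tmem170b) had 3 probes each. Their day 28 differences ran between -0.39 and 0.32, between -0.06 and 0.38, and between -0.40 and -0.21, and none passed, although probe 1 of Gm14198 did so without OVA day 14 replicate 2 (-0.39).

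Few tested transcripts lay beside genes of immune cells, and 1 of them passed at day 28. Neighbour lists held genes of named cell types, and a member was counted when its nearest protein-coding gene within 100 kb was on the list. Beside T cell genes 0 of 8 tested members passed. The smallest adjusted p belonged to Gm33341 near Bcl11b, a T cell identity factor, at -0.38 (adjusted p = 0.11, limma), while Gm39759 near the interleukin 2 receptor gene Il2ra read 0.37 (adjusted p = 0.163) and Gm34649 near the inhibitory receptor gene Ctla4 read 0.21 (adjusted p = 0.417); these 3 were named after their values were seen. Beside B and plasma cell genes 0 of 2 passed, beside myeloid and dendritic cell genes 0 of 6, beside erythroid and stem cell genes 0 of 6, and beside cell cycle genes 0 of 5. Beside natural killer and innate lymphoid genes 1 of 6 passed, probe 3 of Gm11802, a gene that overlaps Tox. Of inflammatory and interferon genes 1 member lay near, and it was not tested. The medians were 0.09 beside T cell genes, -0.08 beside B cell genes, 0.08 beside myeloid, 0.04 beside innate lymphoid, -0.03 beside erythroid and -0.12 beside cell cycle genes, against -0.03 over all tested probes. The lists are too small to set against the background of 14%.

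At day 14 few members passed: 5 of 7117 (0.0703%), all higher in OVA, against 0.0675% of all tested probes, of which 0.0619% were higher and 0.00551% lower. At an unadjusted p below 0.05 there were 1258 members (17.7%), against 14.7% of all probes. Of the 5, 2 carried a symbol. Leaving out OVA day 14 replicate 2 gave 11 members, against 86 of all tested probes, while leaving out any other OVA array gave 1 to 3 members. Without control day 14 replicate 2 more members passed, most of them lower in OVA, and the same held over all tested probes. That fit left the array with the streak as the sole day 14 control. With the spike-in scaling 52 members passed, 3 higher and 49 lower, against 442 of all tested probes, 32 higher and 410 lower. The direction at day 14 thus turned with the scaling over the whole array.

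Gm34699 (chromosome 13, back to back with Hapln1, a gene of the hyaluronan matrix) read -1.76, -1.82, -1.80 and -1.85 in OVA day 14 spleens, against -2.55 and -2.41 in control day 14 spleens. The OVA arrays lay close together and above both controls, and at day 28 the means were -2.38 ± 0.11 for 4 OVA spleens and -2.35 ± 0.04 for 2 control spleens (SD). The day 14 difference of 0.67 (adjusted p = 0.0435, limma) lost its call in 11 of 12 fits that left out 1 array, at 0.60 to 0.69, all but that without control day 14 replicate 2. Gm31089 (chromosome 18) read -2.93, -3.14, -3.08 and -3.14 in OVA, 3 of them detected, against -4.60 and -4.54 in control, none detected. It was at least 2.53-fold higher in OVA (adjusted p = 0.00523, limma), a bound whose OVA mean includes the undetected array. Its call held in all 12 such fits but not with the replicate block or with the groups compared alone. At day 28 it was also higher, by 0.63 ± 0.12 (SE, adjusted p = 0.0096).

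Further named transcripts of day 14 did not pass. Gm40000 (chromosome 2, beside Cyp24a1, which breaks down vitamin D) read -3.15, -3.17, -3.20 and -3.19 in OVA and -3.77 and -4.22 in control (0.82, adjusted p = 0.0577, limma). Gm42071 (opposite Tenm2) and Gm33643 (opposite Uaca) had the lowest values, -1.87 and -1.28 (adjusted p = 0.0757 and 0.0602). On control day 14 replicates 1 and 2, Gm42071 read -1.51 and -3.18, and Gm33643 -2.17 and -3.05. Both probes had a spot in the streak of replicate 1, and without the streak's spots the differences were -0.52 and -0.71. Gm17518, which starts back to back with the centromere gene Mis18a, read -2.68, -2.76, -2.65 and -2.70 in OVA and -2.30 and -2.05 in control (-0.52, adjusted p = 0.086). Its log2 difference at day 28 was -0.41 (adjusted p = 0.0245). Single controls decided some of these: Gm40000 passed without control day 14 replicate 1 (1.04) or replicate 2 (0.59), and Gm42071 and Gm33643 without replicate 2 (-2.71 and -1.72).

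The OVA difference itself changed between the days for 141 members (1.98%), 64 with a higher and 77 with a lower signed value at day 28 than at day 14. The split turned with the scaling: 216 were higher and 10 lower with spike-in scaling, 108 and 37 with the 75th percentile over detected probes, and 160 and 2528 with normexp. Over all tested probes 2.92% passed this interaction, 1.58% higher and 1.34% lower. Without single arrays the members' count lay between 26 and 482, and with array position as a block it was 0. It was 38 and 482 without control day 14 replicates 1 and 2, and 30 and 26 without control day 28 replicates 1 and 2. It was 88, 52 and 77 without OVA day 14 replicates 2, 3 and 4, and 44, 41 and 41 without OVA day 28 replicates 1, 2 and 3. Among named transcripts Tvp23bos gave the smallest adjusted p (0.0041, limma). It was detected in OVA day 28 spleens alone, so the fitted interaction has no measured size. It had entered the test through that group alone, so this call is not independent of the filter. Its call held in all 12 fits that left out 1 array, was lost with array position as a block and turned its sign with normexp (-0.21).

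Others of the interaction moved in opposite directions on the 2 days. Gm30999 (chromosome 13, 1.0 kb from Hsd17b3, an enzyme of testosterone synthesis) was at 1.65, 1.90, 1.90 and 1.95 in OVA day 14 spleens and 1.29 and 1.40 in control day 14 spleens. At day 28 it was at 0.96, 0.91, 0.81 and 0.85 in OVA and 1.32 and 1.24 in control. OVA thus lay above control at day 14 and below it at day 28 without overlap on either day, with an interaction of -0.91 ± 0.15 (SE, adjusted p = 0.0178, limma), although the day 14 difference alone did not pass (0.51, adjusted p = 0.0992). Gm30039 (chromosome 10, 11.8 kb from Icosl, the ligand of the T cell costimulator ICOS) followed the same course, at 0.37 on day 14 (adjusted p = 0.198) and -0.53 on day 28 (adjusted p = 0.016), with an interaction of -0.90 (adjusted p = 0.0244). Both interactions were lost without control day 14 replicate 1 (-0.85 and -0.74), control day 28 replicate 1 (-0.87 and -0.89) or replicate 2 (-0.95 and -0.91), and that of Gm30039 also without OVA day 28 replicate 1 or 3 (-0.89 each). Array position as a block ended both as well. The replicate block and spike-in scaling (-0.66) ended that of Gm30039. Of 24 alternatives each, 5 ended the call of Gm30999 and 9 that of Gm30039.

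Several of the interactions of this paragraph rest on groups in which the probe was not detected, so their sizes are fitted values. Gm35715, Gm26832 and Gm36007 gave interactions of -1.07, -1.08 and 1.52 (adjusted p = 0.0189, 0.0466 and 0.0237, limma). Gm41285 and 6430590A10Rik, which overlaps the amino acid transporter gene Slc6a15, gave 1.80 and 1.70 (adjusted p = 0.0446 and 0.0429, limma). Both had entered the test through OVA day 28 alone, and Gm26832 through control day 28 alone, so these calls are not independent of the filter. Leaving out 1 array in turn ended the call of Gm26832 in all 12 fits (-1.31 to -0.85), of 6430590A10Rik in 11 (1.03 to 1.77, all but control day 14 replicate 2) and of Gm41285 in 9 (1.63 to 1.85, all but control day 14 replicate 2 and OVA day 14 replicates 1 and 2). It ended that of Gm36007 without control day 14 replicate 1, either day 28 control, or OVA day 28 replicate 2 or 3 (1.42 to 1.62), and of Gm35715 without either day 28 control (-1.03 and -1.11). For 6430590A10Rik, control day 14 replicates 1 and 2 read -2.51 and -3.84, and without the streak's spots the interaction was 0.67 and did not pass.

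Between the OVA groups, day 28 differed from day 14 in 1898 members (26.7%), 776 higher and 1122 lower. Spike-in scaling gave 1112 higher and 432 lower, the 75th percentile over detected probes 904 and 819, and normexp 511 and 4753. Over all tested probes 34% passed, 15% higher and 19.1% lower. Slide and day coincide here. Gm31534 probe 1 gave the largest rise among named members that passed without overlap: it read -1.46, -1.41, -1.36 and -1.50 at day 28, against -4.68, -3.90, -3.39 and -3.17 at day 14 (2.35 ± 0.28, SE, adjusted p = 0.000184, limma). Gm41285, Gm26901 and Gm32741, detected on all OVA day 28 arrays and on no OVA day 14 array, were higher at day 28 by bounds of at least 1.13-fold, 1.58-fold and 1.44-fold, with adjusted p of 0.000324, 0.000929 and 0.00145. All 3 had entered the test through OVA day 28 alone, so these calls are not independent of the filter. Normexp turned the sign of these 3, at -0.14, -0.04 and -0.11. Among the falls, Gm30999 stood at -0.97 ± 0.09 (adjusted p = 4.13e-05) and Gm36600 (chromosome 4, 53.0 kb from Slc45a1) at -0.99 ± 0.13 (adjusted p = 0.000296). Gm33621 had a fitted difference of -1.03 (adjusted p = 0.00234, limma). It was detected on 2 of 4 OVA day 14 arrays and 1 of 4 OVA day 28 arrays, so this size rests largely on signals not above background. Gm40216 was detected on 1 of 4 OVA day 14 arrays and 0 of 4 OVA day 28 arrays. Its fitted difference of -1.41 (adjusted p = 0.00443, limma) therefore has no measured size.

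Between the control groups, which shared slide 1, 0 members passed for day 28 over day 14 with limma, against 0.00138% of all tested probes. At an unadjusted p below 0.05 there were 698 members (9.81%), against 10.3% of all probes. The highest moderated t values belonged to Gm39383 (26.4 kb from Phip), Gm30050 (opposite Mast4) and Gm33335 (overlapping Tnfaip8), at 1.53, 1.09 and 0.78 (adjusted p = 0.245 each, limma). The lowest belonged to Gm33566 (overlapping Cd70, a ligand that costimulates lymphocytes), Gm33643 and Gm32835 (opposite Nav1), at -1.15, -1.11 and -1.03 (adjusted p = 0.257, 0.266 and 0.258). For Gm33643 the value was -0.55 without the streak's spots and -0.67 without control day 14 replicate 1. Gm33566 read -3.21 and -2.82 in control day 28 spleens and -2.04 and -1.70 in control day 14 spleens, with no overlap. Without control day 14 replicate 2, the differences of Gm33643 and Gm32835 were -1.56 and -1.35. The streak array was then the sole control of day 14, and more probes passed among members and over the whole array.

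A principal component analysis of the tested members set the OVA day 28 spleens apart. The first component held 32.2% of the variance. The OVA day 28 arrays scored 13.0, 12.3, 21.2 and 28.8 on it, and the other 8 arrays lay between -19.5 and -1.44. On the second component (20.2%) the extremes were OVA day 14 replicate 2 at -21.0 and control day 14 replicate 1 at 22.1, the arrays with the fewest detected spots and with the streak.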

How the data were processed

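Spleen RNA of 12 mice was measured on 12 single-colour (Cy3) Agilent arrays. Per the file headers, the authors' spot intensity on a linear scale was made with Agilent Feature Extraction 11.5.1.1 on a design of build mm9, whereas the submitters' processing notes name version 9.1. The column used was the deposited processed signal, which is background-corrected. The authors' deposited value table holds 0 members and was not used here.

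Control spots and spots with an outlier flag were left out, the spots of a probe (2 for each member) were averaged, log2 was taken and the array's 75th percentile subtracted. No non-control spot was saturated. Members were named through their unversioned accession in a RefSeq table of GRCm38.p6 (1477 by the same version and 2336 by another), from which gene types and neighbours within 100 kb were taken. Promoters come from RefSeq, GRCm38.p6. All 12 arrays entered 1 limma model (limma 3.58.1, R 4.3.3) with 4 groups as terms, 8 residual degrees of freedom, eBayes and Benjamini-Hochberg adjustment over 72645 probes. Every adjusted p in the text comes from limma. The model was run on simulated data with 200 changed probes. The simulated noise was independent between arrays, with no slide effect and no streak, so it cannot show how the model performs under these. Precision is limited by how few arrays there are, with 2 controls a day.

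The members, the lists and the named transcripts were chosen with earlier results of these data known. Named transcripts carry 1 symbol. They are the 8 brightest, the 10 highest and 10 lowest differences past the threshold without overlap at day 28, those past the threshold at day 14 (or, for a direction in which under 3 passed, the 3 with the largest moderated t), 4 in each direction for the interaction and for the OVA groups, 3 in each direction for the controls, members past the threshold beside a listed gene, and the 4 genes with the most probes. Alternatives covered background correction, scaling, filters, probes per gene, the streak, blocks, weights and leaving out each array. The files hold no mean signal column, so the normexp alternative used the median signal. Same-numbered arrays of different groups did not deviate together (14 pairs, correlations of -0.18 to 0.32), so replicate numbers were not taken to pair the samples. The gene lists were used for counts only.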

Additional observations from a re-analysis of the deposited data

Results flagged for a closer look

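Single arrays stood away from the other 3 of their group for 6 probes, of 114 groups examined, where chance flags about 1 in 20. Gm26535 read 8.58 (probe 1) and 8.96 (probe 2) on OVA day 28 replicate 1. Gm17518 read -2.70 on the same array. On OVA day 28 replicate 3, Gm11802 probe 3 read -3.36 and Gm41285 read -3.55. Gm30999 read 1.65 on OVA day 14 replicate 1.

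The OVA difference changed between the days, by the interaction test (limma, adjusted p under 0.05), for 13 named transcripts. These are signed, fitted values, for some probes from groups in which they were not detected. Gm41285, 6430590A10Rik and Tvp23bos entered the test through OVA day 28 alone, and Gm26832 through control day 28 alone. OVA minus control had a higher signed value at day 28 than at day 14 by 1.80 for Gm41285, 1.70 for 6430590A10Rik, 1.60 for Tvp23bos, 1.52 for Gm36007, 1.51 for Gm35430 and 1.26 for Gm33643. It had a lower signed value at day 28, by -1.08 for Gm26832, -1.07 for Gm35715, -0.91 for Gm30999, -0.90 for Gm30039, -0.86 for Gm31089, -0.71 for Gm39852 and -0.71 for Gm34699. For 6430590A10Rik and Gm33643 the difference was smaller in size at day 28 (0.65 and -0.02) than at day 14 (-1.04 and -1.28). For both the streak of control day 14 replicate 1 moved with the value, as given above.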

How the results depend on the processing

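Of 39 calls of named transcripts, 10 held under every alternative run and 29 were lost under at least one. Array position as a block and the replicate block each ended 15, normexp ended or turned 11, and leaving out control day 28 replicate 1 or 2 ended 20 and 19. Normexp turned the sign at day 28 for Gm11802 probe 1 (-0.24), Gm11802 probe 3 (-0.018) and Gm30392 probe 1 (-0.28), between the OVA groups for Gm26901 (-0.035), Gm32741 (-0.11) and Gm41285 (-0.14), and in the interaction for Gm41285 (-0.15) and Tvp23bos (-0.21). The cause was not tested.

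Of 662 members at day 28 (59.2% higher), normexp gave 2867 (13.7% higher), no filter on dim probes 438 and array position as a block 277. Leaving out 1 array gave 161 to 792 at day 28, 1 to 279 at day 14, 26 to 482 for the interaction, 1401 to 2053 between the OVA groups and 0 to 220 between the controls. At day 14, 5 members became 28 with normexp, 30 with quantile normalization, 34 among probes detected on all arrays, 32 with trend and robust, and 52 with spike-in scaling (5.77% higher, against 100% in the main fit). They became 1 with the 75th percentile over detected probes, without a filter, with array position and with array weights, and 0 with the replicate block and with only the groups compared. The interaction (141, 45.4% higher) gave 2688 with normexp (5.95% higher), 226 with spike-in scaling (95.6% higher), 228 among probes detected on all arrays, 21 without a filter, 26 with the replicate block, 0 with array position, 38 with array weights and 232 with trend and robust. With the 75th percentile over detected probes 74.5% of its calls were higher. Between the OVA groups (1898, 40.9% higher) normexp gave 5264 (9.71% higher), spike-in scaling 72.0% higher and the 75th percentile over detected probes 52.5% higher. Spike-in scaling moved the median of all probes at day 14 to -0.21, against 0.05. The replicate block gave 498 members at day 28 and 1779 between the OVA groups.

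Against the 99th percentile of negative controls, 79.4% of members were detected in OVA day 14, 85.0% in OVA day 28, 85.9% in control day 14 and 86.1% in control day 28 spleens. With the 75th percentile over detected probes the median levels were -5.02, -5.01, -4.85 and -5.05 in that order. Levels near background and 2 controls a day limit what can be resolved: 3735 members were well above background on no array.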
